A study of Mus musculus with 2 samples.

Results

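The genes described here are Nphs1, Wt1, Podxl, Synpo, Ptpro, Plce1, Cdkn1c and Tcf21, 8 genes of the podocyte, measured in cells that had been purified from the collecting duct of the mouse kidney. They were taken by gene name from the probes of the array, which gave 16 probes of 41174, and all 8 genes were among the 13883 genes of the RefSeq table that had a measured probe. A probe was called measured when its signal was well above background, by the flag of the scanner software, on at least 1 array. On both arrays 10 of the 16 probes were measured, 2 were measured on the WT array alone, and 4 on neither array.

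The series compared wild-type (WT) mice with mice that had lost Gata2, a zinc finger transcription factor, in the renal tubule (Gata2 CKO). The WT group is labelled wild type, with no transgene named, and the CKO group carried Gata2flox/- with Pax8-rtTA and Tet-Cre. In this system doxycycline lets the Pax8-driven activator switch on Cre in tubule epithelium, while the null allele is carried by every cell of the mouse, so that podocytes too have at most 1 working copy of Gata2. All mice were 8 weeks old and of mixed sex, and the deletion was induced from an age of 4 weeks by 4 weeks of doxycycline. The labels do not say whether the WT mice drank it too. Cells were purified with the lectin DBA (Dolichos biflorus agglutinin) on magnetic beads, and 50 ng of their RNA was labelled with Cy3 for a one-colour array. The design text gives 3 mice for each genotype, the array names describe mixtures, and each genotype was represented by 1 array. No difference below therefore has a replicate check, and no test between mice was possible.

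Podocytes are the epithelial cells that cover the capillaries of the glomerulus. Their interlocking foot processes are joined by the slit diaphragm, which holds back plasma protein, and rest on a basement membrane that they share with the endothelium. They lie at the head of the nephron and are no part of the collecting duct, and none of the 8 genes is a marker of principal or intercalated cells. Several of them are not exclusive to podocytes: podocalyxin is also made by endothelium, Tcf21 by interstitial fibroblasts, and Cdkn1c and Plce1 by many cells. Fewer podocytes in the purified cells and less RNA per podocyte cannot be told apart in these arrays.

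The cells carried strong signal for genes of the collecting duct. The water channels Aqp2 and Aqp3, of principal cells, had WT signals of 41848 and 96284 and CKO signals of 28085 and 56776. The anion exchangers Slc4a1 and Slc26a4, of intercalated cells, had WT signals of 8129 and 21234 and CKO signals of 12190 and 29216. The median of the negative controls was 2.67 and 2.53, and the lowest signal well above background was 12.0 and 11.6. Both arrays lay on 1 slide and were read in 1 scan, and 64.1% and 62.4% of their spots were well above background. The 75th percentile of the signal, to which each array was set before any difference was taken, was 315 for WT and 250.4 for CKO. Signals are given below as the scanner software wrote them, and a difference is the log2 of CKO less that of WT once the arrays were so scaled, where 0 means an equal share of the 75th percentile. The error beside a difference is the spot error of the software, which for bright probes is a share of the signal fixed by its error model, and it covers no spread between mice.

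The probes that report on the slit diaphragm protein nephrin, on the receptor phosphatase Ptpro and on the transcription factor Tcf21 show what was hybridised. The Ptpro probe printed here was not well above background on either array, and the measured Ptpro signal comes from another probe. The Nphs1 probe maps to chr7:31266833-31267052 of mm9 on the + strand, where its 60 bases are spread over 220, so that 160 bases of the genome are skipped and the probe matches spliced RNA. This Ptpro probe maps likewise to chr6:137391209-137392064 on the + strand, over 856 bases. The Tcf21 probe maps without a gap to chr10:22537563-22537622 on the - strand. Each of these sequences, printed 5′ to 3′ with no part marked, has at least 1 reading frame free of stop codons.
Nphs1: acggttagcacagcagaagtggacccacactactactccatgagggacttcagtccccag
Ptpro: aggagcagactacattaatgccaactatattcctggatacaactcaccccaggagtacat
Tcf21: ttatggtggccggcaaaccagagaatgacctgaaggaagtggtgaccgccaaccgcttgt

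RefSeq promoters (assembly GRCm38.p6) were at hand for 4 of the 8 genes, Nphs1, Tcf21, Ptpro and Plce1. They were searched, on both strands, for the GATA hexamers AGATAA and TGATAA and also AGATAG and TGATAG, the letters that GATA factors are known to bind, which share a core of GATA and are counted at each place they occur. In the window of 300 bases around the start, Nphs1 and Plce1 each held 2 and Ptpro and Tcf21 each held 1. At least 1 was present in 29.8% of all 32851 promoters listed. Kirrel2, the neighbour of Nphs1 on chromosome 7, held 0. The letters GCGTGGG, of the kind that WT1 binds, were in 0 of these 4 windows and in 5.04% of all. A match describes the sequence and is no evidence of binding, and a missing match says only that these letters are not in this window. The 250 bases before the start are printed for Nphs1 and Tcf21, the genes of these 4 with the largest and the smallest difference between the arrays, at chr7:30459808-30460057 on the + strand and chr10:22820144-22820393 on the - strand. Capitals mark the hexamers.
Nphs1: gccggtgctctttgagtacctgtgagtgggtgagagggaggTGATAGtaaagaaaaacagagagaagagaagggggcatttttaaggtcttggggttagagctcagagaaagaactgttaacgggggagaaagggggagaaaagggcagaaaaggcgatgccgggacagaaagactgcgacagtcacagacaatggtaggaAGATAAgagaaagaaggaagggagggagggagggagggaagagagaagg
Tcf21: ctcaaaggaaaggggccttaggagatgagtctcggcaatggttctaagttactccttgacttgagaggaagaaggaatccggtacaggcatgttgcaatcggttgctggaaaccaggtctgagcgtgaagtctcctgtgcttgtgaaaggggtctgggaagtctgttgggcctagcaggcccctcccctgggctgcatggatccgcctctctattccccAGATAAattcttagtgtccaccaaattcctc

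Across the 8 genes the CKO array was lower, though by sizes that ranged widely. Where a gene had several measured probes, the brightest stands for it here. All 8 genes were below 0, with a median of −0.49, beside a median of 0.02 and 44.9% below 0 over all 13883 genes. Wt1, Nphs1 and Podxl, 37.5% of the 8, were at least 2-fold lower, the size used throughout to call a difference, and 3.32% of all genes were. None of the 8 was at least 2-fold higher, against 1.22% of all genes. By probe, 3 of the 12 measured ones, or 25.0%, were at least 2-fold lower, against 2.49% of all 26861 measured probes and 3.10% of the 17407 whose mean signal lay within the range of these 12. None of the 12 was at least 2-fold higher, against 1.37% of all measured probes and 1.72% of those in that signal range. Of the 12 probes 11 were below 0, and their differences ran from −1.71 at Wt1 to 0.22 at a probe of Podxl. The 2 probes measured on the WT array alone could only come out at 0 or lower. Of the 10 measured on both arrays 9 were below 0.

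**Figure D1:**
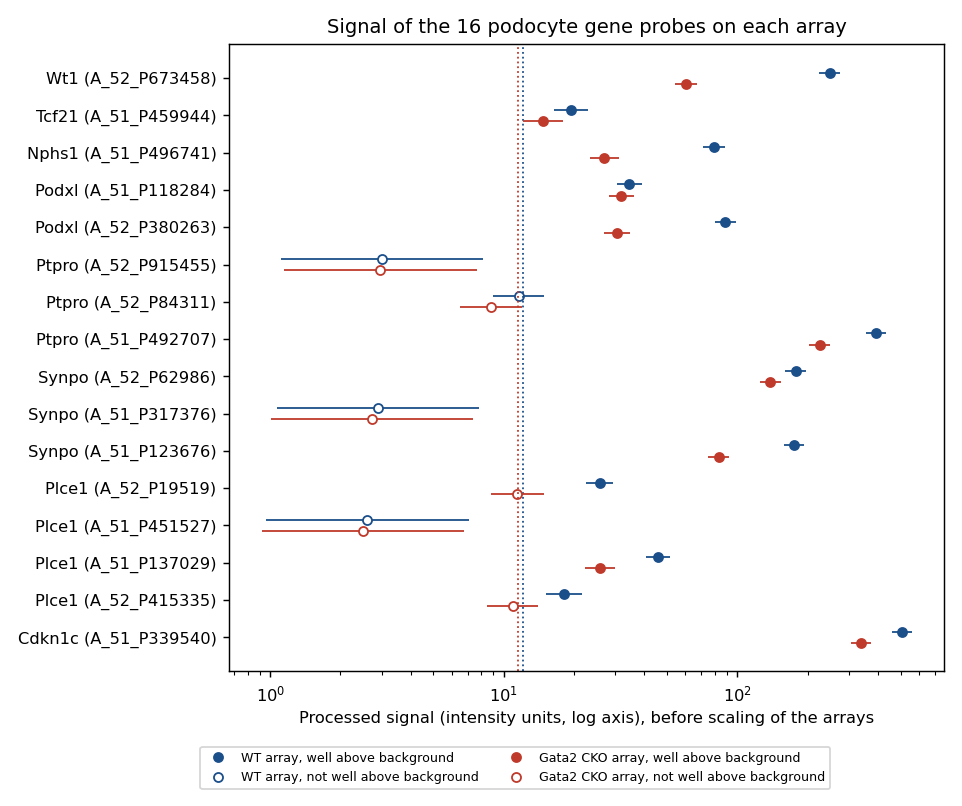
Processed signal (intensity, log axis, before scaling) of the 16 probes of the 8 podocyte genes on the WT array (blue) and the Gata2 CKO array (red), with the software's spot error as bars, by gene and then by position along the transcript. Filled points are well above background and open ones are not, and dotted lines mark the lowest signal well above background on each array (12.0 and 11.6). The Wt1 probe stands at 249 and 60.2, while 4 probes are open on both arrays.

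The transcription factors came first in the order of roles. Wt1, the zinc finger factor that podocytes keep into adult life, had the largest difference of the 8. Its probe, at chr2:105013428-105013487 (mm9, + strand), was printed 10 times on each array, and 3 of these spots carried an outlier flag on at least 1 array. The 7 spots left ran from 236 to 256 for WT, with a median of 249, and from 56.7 to 63.6 for CKO, with a median of 60.7. With the flagged spots kept, the WT array ran from 224 to 256 and the CKO array from 56.7 to 68.2. These ranges are of signals before scaling. After scaling, Wt1 was at −1.71 ± 0.21, or 30.5% of the WT level. The standard deviation of its 7 spots was 0.037 (WT) and 0.052 (CKO) in log2, which describes 1 RNA preparation on each array and not mice.

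Tcf21, a basic helix-loop-helix factor needed for glomeruli to form, behaved differently. Its signals of 19.4 (WT) and 14.7 (CKO) were both little above the limit of detection. After scaling the difference was −0.07 ± 0.37, smaller than its spot error. An antisense transcript of Wt1, Wt1os, was not well above background on either array, with signals of 4.39 and 3.27.

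Nephrin, the transmembrane protein that bridges the slit between foot processes, is encoded by Nphs1. Its single probe gave 79.4 for WT and 27.0 for CKO. The difference was −1.23 ± 0.26, a 2.34-fold lower level on the CKO array.

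Podxl encodes podocalyxin, the charged sialomucin that coats the foot processes and keeps them apart. It had 2 probes, both on the - strand of chromosome 6, and they disagreed. The probe at position 4358 of the transcript, as the files number it (chr6:31470405-31470464), had signals of 88.9 and 30.5 on the WT and CKO arrays. The probe at position 1820 (chr6:31472943-31473002) had signals of 34.5 and 31.8. The first was lower on the CKO array and the second was nearly level. Their differences were −1.21 ± 0.23 and 0.22 ± 0.25, a gap of 1.43. In 5244 genes with at least 2 probes measured on both arrays, the probes of a gene scattered around their mean with a pooled standard deviation of 0.27. A gap as wide as that of Podxl was found in 61 of them, or 1.16%. The lower level of Podxl thus rests on 1 probe.

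Ptpro, the receptor tyrosine phosphatase GLEPP1 of the podocyte surface, had 1 measured probe among 3. At position 4986 (chr6:137411520-137411579) the signals were 392 (WT) and 225 (CKO), a difference of −0.47 ± 0.21. The gap-crossing probe printed above, at position 3380 of the same transcript, gave 11.6 and 8.78, and the last probe, designed on a different cDNA, gave 3.02 and 2.97, none of them well above background. The probe nearest the end of the transcript was therefore the one with signal. Podxl and Ptpro lie on the chromosome of Gata2, and their nearest probes are 56.7 and 49.2 Mb from those of Gata2.

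**Figure D2:**
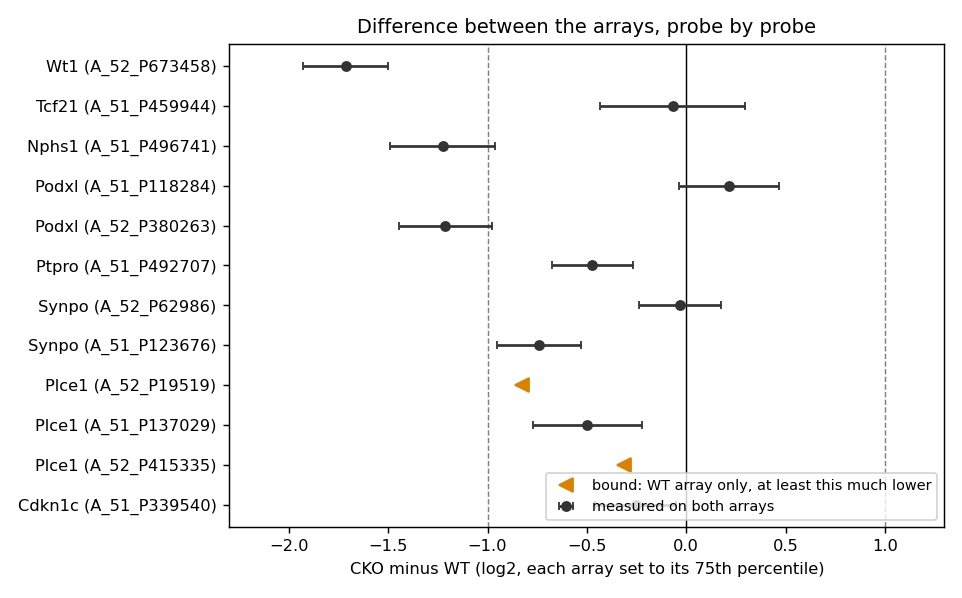
CKO minus WT (log2, each array set to its 75th percentile) of the 12 measured podocyte gene probes, with the spot error of both arrays combined as bars. Triangles are bounds for probes measured on the WT array alone, and dashed lines mark 2-fold. Wt1, Nphs1 and 1 probe of Podxl lie beyond 2-fold lower, and the other probe of Podxl, at 0.22, is the one probe above 0.

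Synaptopodin, Synpo, organises actin in foot processes. It had 3 probes on chromosome 18 (mm9, - strand), of which 2 were measured, both on transcript variant A. At position 2970 (chr18:60755626-60755685) the signals were 178 and 139, and at position 4503 (chr18:60753644-60753691) they were 175 and 83.3. The later probe, of 60 bases, is placed on only 48 bases of the genome, and the reason was not analysed. The WT signals of the probes were much the same, and the CKO signal was lower at the later position. The differences were −0.03 ± 0.21 and −0.74 ± 0.21. The probe of variant B, with 2.89 and 2.73, was at the level of the negative controls on both arrays.

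Plce1 encodes phospholipase C epsilon, a signalling enzyme needed for foot processes to mature, and had 4 probes on chromosome 19. One, at position 7055 (chr19:38857137-38857196, + strand), was measured on both arrays, with 45.8 (WT) and 25.8 (CKO), a difference of −0.50 ± 0.28. At position 8818 the WT signal was 18.04, and the CKO signal, at 10.9, was not well above background. A probe designed on another cDNA (chr19:38798199-38798258) did the same, with 25.7 and 11.4. These gave bounds of at least 1.24-fold and at least 1.77-fold lower, with the lowest signal that the CKO array could tell from background in place of the dim value. The last probe, with 2.61 and 2.49, was at the level of the negative controls. None of the 3 measured probes of Plce1 reached 2-fold, and the one measured on both arrays was below 0. A bound from the WT array alone can only be 0 or lower, so the sign of the bounds adds nothing.

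Cdkn1c encodes the cyclin-dependent kinase inhibitor p57, which podocytes express as they leave the cell cycle. Its probe (chr7:150644753-150644812, - strand) gave 506 (WT) and 338 (CKO), a difference of −0.25 ± 0.20. Cdkn1c is imprinted, and of a list of 9 transcripts, its neighbours on chromosome 7 and antisense transcripts, 6 were measured. Their median was 0.05, with 2 below 0 and none 2-fold apart. Slc22a18 was at 0.21, Cd81 at −0.16 and the noncoding RNA Kcnq1ot1, which silences the domain in cis, at 0.13.

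For Podxl and Synpo, the 2 genes with more than 1 probe measured on both arrays, the probe later in the transcript was the lower on the CKO array by 1.43 and by 0.71. For Plce1 the bound at position 8818 was smaller than the difference at position 7055, and being a bound it sets no order between them. Whether any probe lies in a coding exon or in an untranslated region was not analysed here.

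**Figure D3:**
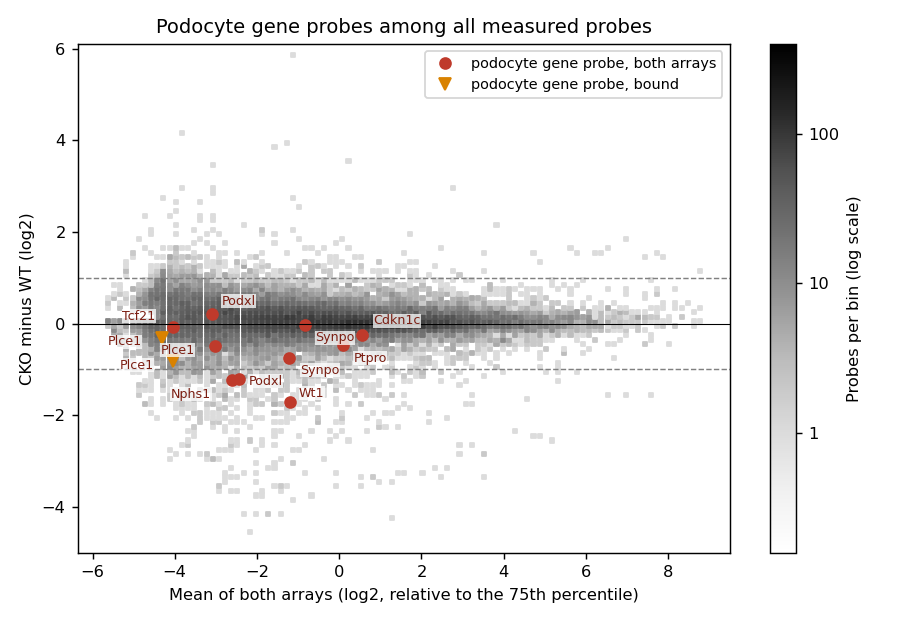
CKO minus WT (log2) against the mean log2 signal of both arrays for all 26861 measured probes, shown as shaded bins, with the 12 probes of the podocyte genes on top. Points are probes measured on both arrays, triangles are bounds, and dashed lines mark 2-fold. Wt1, Nphs1 and 1 probe of Podxl lie below the lower dashed line, in the part of the signal range where 3.10% of all probes do.

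Other genes of the podocyte were then taken from 4 lists, of which 54 of 59 genes were measured. Their median was −0.13, with 35 below 0 and 19 above. Some of these genes were far brighter than any of the 8, whose highest WT signal was 506, that of Cdkn1c. Arhgap24, Agrn and Myh9 had WT signals of 17865, 16884 and 14378 and differences of −0.15, 0.33 and −0.01. Which cells made such signal was not tested, so the median cannot be read as that of podocyte RNA alone. Of the 54 genes 5, or 9.26%, were at least 2-fold lower, beside 3.32% of all genes, and 1 was at least 2-fold higher, beside 1.22% of all genes. Among genes of the slit diaphragm and its adaptors 11 of 13 were below 0, with a median of −0.18. Kirrel, which encodes the nephrin partner Neph1, was at −1.70 ± 0.22, with signals of 198 and 48.3. Its other 2 probes were at the level of the negative controls on both arrays, at 2.57 and 2.45 and at 2.48 and 2.37. Its lower level, like that of Podxl, thus rests on 1 probe. Kirrel2, the relative that lies beside Nphs1, was not well above background by either of its probes, the brighter with 9.95 and 7.89.

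Genes of the podocyte cytoskeleton and surface had a median of −0.13 over 24 measured genes, 16 of them below 0. The natriuretic peptide clearance receptor Npr3 was at −1.38 ± 0.22, and its other 2 probes, measured on the WT array alone, had signals of 45.2 and 12.5 and of 44.3 and 11.3. Clic5, a chloride intracellular channel protein that binds ezrin in foot processes, was at −1.13 ± 0.21, with −1.25 at a second probe and a bound of 0 at the last. By the mean of its probes Clic5 was at −0.79 and no longer 2-fold lower. Mme, the peptidase neprilysin, which proximal tubule also makes, was the gene of these lists that was at least 2-fold higher, at 1.06 ± 0.20, or 0.82 by the mean of its probes and 0.98 with normexp, a background correction with an offset of 50.

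Of the podocyte transcription factors 7 of 8 were measured, with a median of −0.47 and 5 below 0. With normexp the median was −0.18, and 1 gene in place of 2 was at least 2-fold lower. The forkhead factors Foxc1, at −1.99 ± 0.22, and Foxd1, at −1.88 ± 0.28, were at least 2-fold lower. Foxc1 had signals of 258 and 51.6. Foxd1, which also marks renal stroma, had 110 and 23.8, and its other probe was measured on the WT array alone, with 44.2 and 6.18. Lmx1b, a LIM homeobox factor, was not well above background on either array. The probes of Klf15 disagreed. By its brighter probe, with signals of 617 and 720, Klf15 was at 0.55 and counts as above 0. By its other probe, with 249 and 68.9, it was at −1.52, and it was named after these values were seen.

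Secreted and basement membrane genes differed in direction from the 8 genes, with 7 of 10 above 0 and a median of 0.12, though of −0.43 with spike-in scaling. None was 2-fold apart. The semaphorin Sema3g came nearest, just short of it, with signals of 518 and 207. Angptl2 was at −0.80 ± 0.35 and Bmp7, which also has sources in the tubule, at −0.34 ± 0.20. The summed signal of the brightest probes of this list, in which the brightest genes weigh most, was 117% of the WT sum on the CKO array after scaling. The same sum over the 8 genes was 69.3%.

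Relatives of the 8 genes by sequence or by binding had a median of −0.04 over 12 measured, with 6 on either side of 0. The receptor phosphatase Ptprb, of the same class as Ptpro and made by endothelium, was at −1.48 ± 0.21 with signals of 218 and 62.1, and its other 2 probes were at the level of the negative controls. With normexp it was at −0.90 and no longer 2-fold lower. No other of the 12 was 2-fold apart.

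Markers of other cells that the beads could have carried along differed between the arrays as well, and their part in the differences of the podocyte genes was not tested. Parietal epithelium, which lines Bowman's capsule around the podocytes, had a median of −1.03 over 6 genes, 5 of them below 0. Among them the tight junction gene Cldn1 was at least 5.95-fold lower, Akap12 was at −2.11 and Cd44 at −1.20. With normexp Cldn1 was at −0.79 and Cd44 at −0.63, which left Akap12, at −2.05, as the one gene of the list at least 2-fold lower, and the median was −0.67. Pax2 was at 0.45, named after its value was seen. The summed signal of these 6 was 76.8% of the WT sum. The brightest of them, Cd24a, weighed most in that sum, with signals of 13935 and 9906 and a difference of −0.16. Its WT signal was above that of the intercalated cell gene Slc4a1, at 8129. Which cells made the signal of these genes was not tested, so the list cannot be read as parietal RNA alone.

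Endothelium had a median of −0.32 over 12 genes, of which 11 were below 0, and a sum of 85.3%. Von Willebrand factor, Vwf, was at −1.77, Cdh5 at least 1.70-fold lower and Esam at −0.45. With normexp Vwf was at −0.39, none of the list was 2-fold lower, and the median was 0.00. Mesangium and smooth muscle had a median of −0.12 over 9 genes and a sum of 85.1%. That median was −0.76 over the 6 genes measured on both arrays, −0.69 with no filter, −0.28 by the mean of probes and −0.01 with normexp. The list had the mesangial receptor gene Pdgfrb at −1.47 and the integrin gene Itga8 at −0.79. Renin, Ren1, in the same list, was at least 4.83-fold higher, though its probe cannot be taken as separate from its near-identical relative Ren2. With normexp Ren1 was at 0.79 and Pdgfrb at −0.60, neither of them 2-fold apart, and Ren1 was at 1.34 by the mean of its probes.

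Stromal fibroblast genes had a median of −0.82 over 7 and a sum of 57.1%, with Vim at −1.53, Fbln5 at −1.13 and Col1a1 at −0.90. Macrophage genes had a median of −0.80 over 12, all of them below 0, and a sum of 54.3%, with Itgam at −1.47, Lyz2 at −1.25 and Mrc1 at −0.92. With normexp Fbln5 was at −0.71 and Itgam at −0.41, no longer 2-fold lower, and the median of the fibroblast list was −0.53. The 14 genes of the proximal tubule had a median of −0.34 and a sum of 78.5%, with 12 below 0 and 2 above. Slc4a4 was at −3.12, Lrp2 at −1.58 and Slc5a12 at −0.93, while Aqp1 was at 0.72 and Slc22a6 at 0.46, both named after their values were seen. By the mean of its probes Slc4a4 was at −1.52 and Lrp2 at −0.86, and with normexp Slc4a4 was at −1.24. Every one of these lists held marker genes well above background on both arrays.

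The cells of the duct itself lay on either side of 0. Principal cell genes had a median of −0.36 over 14 and a sum of 83.8%, with Stc1 at −1.74, Npnt at −0.70 and Aqp4 at 0.62. Intercalated cell genes had a median of 0.65 over 16 and a sum of 117%, with Atp6v1b1 at 1.94, Car15 at −1.75 and Dmrt2 at 0.95. With spike-in scaling the median was −0.90 for principal cell genes and 0.10 for intercalated cell genes, 7 of the 16 latter being below 0. Among the cell type lists, the medians on either side of that of the 8 podocyte genes, −0.49, were those of the principal cell and macrophage lists. No test of a difference between lists was run.

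**Figure D4:**
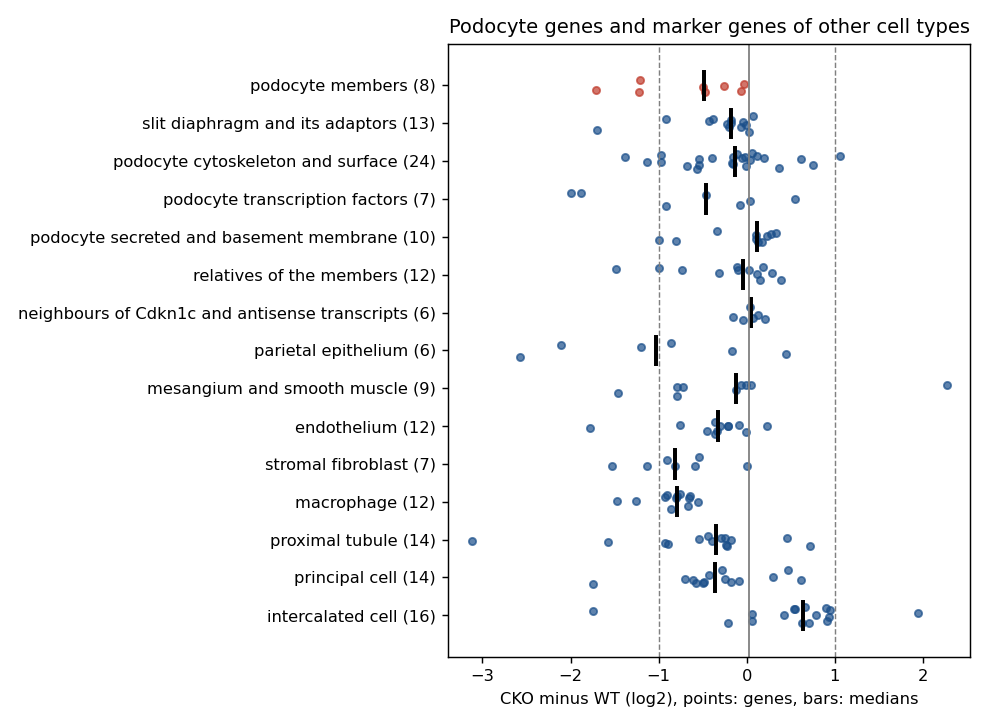
CKO minus WT (log2) of the 8 podocyte genes (red, top row) and of the genes of 14 other lists (blue), 1 point a gene, with the number measured in brackets, bars at the medians, dashed lines at 2-fold and the grey line at the median of all genes, 0.02. The 8 genes have a median of −0.49, parietal epithelium one of −1.03 and intercalated cells one of 0.65.

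The calls depended on which signal was used and how background was treated. Normexp was run on the mean signals and local backgrounds of the spots rather than on their processed signals, so it changed both at once. With normexp, which pulls the differences of dim probes towards 0, Wt1 was at −1.08 and remained 2-fold lower, while Nphs1 was at −0.32 and the lower probe of Podxl at −0.45. Of the genes named from the podocyte lists Foxc1 was at −1.17 under that correction, Kirrel at −0.85, Npr3 at −0.70, Clic5 at −0.66 and Foxd1 at −0.64. When spike-in control transcripts were set equal in place of the 75th percentiles, every difference was lowered by 0.55 and the median of all genes came to −0.52. On that scale Synpo reached −1.29 at its later probe, Plce1 −1.05 and Ptpro −1.02, and the level probe of Podxl turned to −0.33. Tcf21 turned to 0.17 with normexp.

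**Figure D5:**
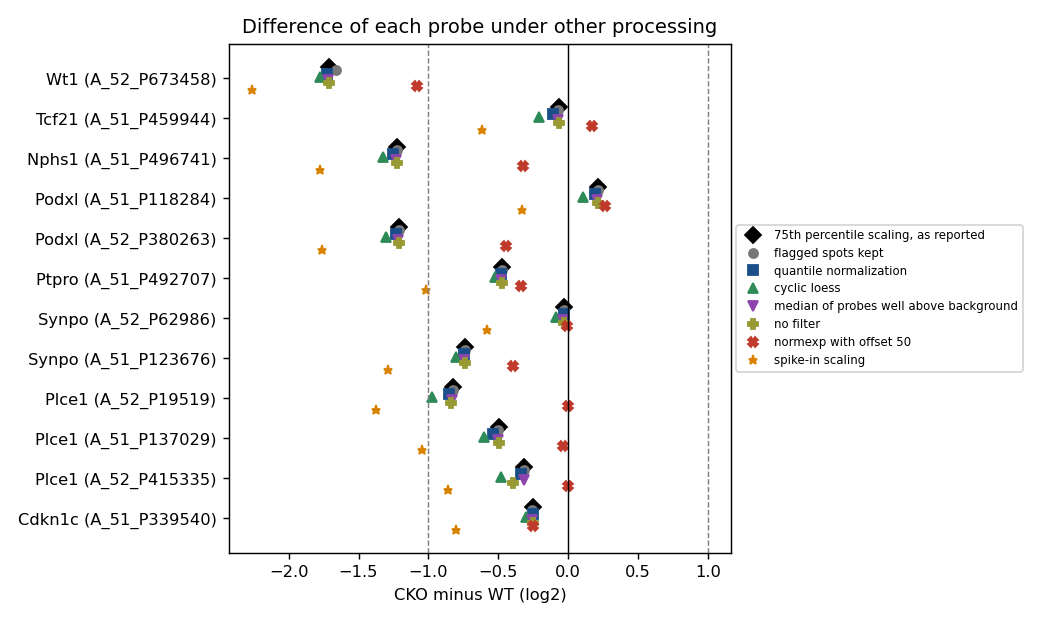
CKO minus WT (log2) of the 12 measured podocyte gene probes under 8 ways of processing, the black diamond being the value reported, with dashed lines at 2-fold. Wt1 stays beyond 2-fold lower under each, from −2.26 to −1.08, while Nphs1, from −1.77 to −0.32, does not reach it with normexp.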

How the data were processed

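Each deposited file is the scanner output of 1 one-colour Agilent array and gives the intensity of each spot on a linear scale, with flags of 0 or 1. Per the file headers, Agilent Feature Extraction 10.7.3.1 made these intensities with local background correction off, spatial and multiplicative detrending on, and surrogate values in place of the dimmest signals, and probes were placed on mm9. Signals near the negative controls can therefore be surrogates, whose order means nothing. The sources used here give no normalization by the authors between the arrays.

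Of 43379 non-control spots, 66 (WT) and 73 (CKO) had an outlier flag, and a spot flagged on either was left out. No spot was saturated. Processed signals were divided by the 75th percentile of their array, taken to log2 and averaged over the spots of a probe. A probe well above background on 1 array gave a bound against the higher of its own signal and the lowest signal well above background on the other array. The accessions of 26876 probes were matched to RefSeq (GRCm38.p6) for names. With 1 array a genotype nothing was tested, and differences of at least 2-fold were called. The members, the 14 lists and the rules were chosen with earlier results of these data known. Named are all probes of the 8 genes, the podocyte list genes at least 2-fold apart or otherwise the 3 largest differences, Kirrel2, and up to 3 genes of each cell type list. A further gene that the rule names is not reported here. Genes or probes named beside these were chosen after their values were seen. The steps were tested on simulated data. The analysis used R 4.3.3, limma 3.58.1, Python 3.11.15, numpy 2.4.6, pandas 2.3.3 and matplotlib 3.10.9. Precision is limited by the number of arrays.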

Additional observations from a re-analysis of the deposited data

How the results depend on the processing

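The median of the 8 genes was −0.49, while normexp gave −0.29 and spike-in scaling −1.03, the latter beside a median of −0.52 over all genes. Of the 12 measured probes 3 were at least 2-fold lower, but 1 was with normexp, 7 with spike-in scaling, 5 at a size of 1.5-fold and 1 at 3-fold. In the 4 podocyte lists 5 genes were at least 2-fold lower, but 1 was with normexp, 10 with cyclic loess and 16 with spike-in scaling, and 12 and 3 were at 1.5-fold and 3-fold. The 1 higher gene of these lists became 0 with normexp, spike-in scaling, the mean of probes and 3-fold, and 3 at 1.5-fold. Beyond what each construction implies, the cause was not tested. Over 8 alternatives, 94 values of single probes were compared with those reported: 76 moved by less than their spot error, 18 by more, and 90 kept their sign. The other 4 were a Podxl probe, Tcf21 and 2 bounds of Plce1 that came to 0. Quantile normalization, scaling on the median of detected probes and keeping flagged spots left each count of member probes within 1.5 times that reported. No paired analysis was possible because each genotype had 1 array, and for the same reason no array could be left out. Signal over background limits Tcf21 and Plce1 most.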
